A study of Xenopus tropicalis with 31 samples.

Results

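Notch pathway and Hes/Hey genes were followed through the open chromatin that lay nearest to them in regenerating tails of Xenopus tropicalis, a frog whose tadpoles regrow an amputated tail together with its spinal cord. The assay was ATAC-Seq, which uses a transposase to cut and tag accessible DNA, and each measured unit was a window of 400 bp around the summit of an accessible region. The members were the windows whose nearest gene has a name of the notch, dll, jag, hes, hey, rbpj, maml, numb, dtx, mib or psen families or is dlc, lfng or adam10. This rule used gene names and no measured value. It found 187 of the 124349 windows, and these name 35 of the 23175 genes that any window names. Windows named mfng, rfng, notch3, notch4 or dll4 were not found. The genes mfng, rfng, notch4 and dll4 are not analysed here, and notch3 is taken up below with the windows named notch2.

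The transgenic tadpoles carried a transgene of 3 reporters (pax6:GFP, with GFP under the pax6 promoter, and the red reporters cryga:RFP and actc1:RFP). They came from heterozygous carriers crossed with wild-type animals. The deposited counts label the all-tissue libraries WT, while the study describes pooling GFP+ with GFP- cells for them. Whether all of them came from transgenic tadpoles is therefore not certain, and a difference in genotype between the tissues was not tested. The posterior part of the tail was cut off at NF stage 41, and the tissue was dissociated and passed through a cell sorter. The pax6 samples were cells inside a GFP gate set on wild-type tadpoles (2 samples each of uninjured tails and of 0hpa, 3 each of 6hpa, 24hpa and 72hpa, where hpa is hours post amputation). The all-tissue samples were sorted without that gate (3 samples of uninjured tails, 2 of 0hpa, 3 each of 6hpa, 24hpa and 72hpa). By the study's description they also contain the GFP+ cells. Uninjured tissue was the amputated tail tip itself. Later tissue was the posterior end of the cut tail, which the study calls regenerated tissue. At 0hpa nothing had regrown, so that tissue lay next to the cut, further forward than the uninjured tip. The pax6 promoter limits the model: some neural stem cells may lie outside the GFP domain and some neurons inside it. Tails of several tadpoles were pooled for a library, and nothing in the labels says that replicates came from separate clutches, so the p-values measure the spread between these libraries.

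The 27 samples held 3069659 to 13256076 counts in all windows (median 5962615 in pax6 samples and 7014782.5 in all-tissue samples). The member windows held 0.0994 to 0.126% of them, with a median of 15 to 62 counts per member window, and none was at 0 in any sample. Values are given as counts per 1000000 after TMM normalization (CPM), tests are edgeR's quasi-likelihood F test with Benjamini-Hochberg adjustment over all windows, and a window was called at an adjusted p under 0.05. A window at -4941 bp from the start of pax6, whose promoter also drives the reporter, was higher in pax6 samples by 1.502 on the log2 scale. Reads from the transgene and from the gene itself were not separated. A window at elavl3, a neuronal RNA-binding protein, was also higher, by 0.59, and windows at the epidermal genes krt8, krt5.7, epcam and tp63 were lower (log2 fold changes of -0.79, -0.999, -0.68 and -0.68). The TSS window of actc1, a muscle actin gene whose promoter is also part of the transgene, was higher in pax6 samples as well, by 1.32 (adjusted p = 1.673e-10, edgeR), with 5.12 to 12.6 CPM in pax6 samples and 2.36 to 5.53 CPM in all-tissue samples. These were 1 of 68 neural progenitor windows, 1 of 76 neuron windows, 4 of 49 epidermis windows and 1 of 22 skeletal muscle windows. The summed promoter windows of the epidermis list ranged from 16.1 to 30.8 CPM in pax6 samples and from 18.9 to 46.1 CPM in all-tissue samples, no marker window was at 0 over its group, and the part of cell composition in the results on Notch genes was not tested. Fewer cells of a type and less open chromatin per cell cannot be told apart in bulk samples. All-tissue 0hpa replicate 1 stood apart, with 7.05% of its counts in promoter windows against 7.99 to 8.95% in the other 4 all-tissue samples of uninjured tails and 0hpa. The main results that rest on this sample are given with and without it. Among pax6 samples of the same timepoints, uninjured replicate 2 had 6.91%, against 8.14 to 8.75% in the others. That pax6 sample was left out only in the fits that leave out each sample in turn.

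Notch signalling passes between neighbouring cells. A ligand of the Delta or Jagged kind on one cell binds a Notch receptor on the next, proteases free the receptor's intracellular domain, and this domain joins the DNA-binding protein Rbpj and a Mastermind coactivator to switch on target genes. Among these targets are Hes and Hey genes, whose bHLH repressors hold back proneural genes, and in the vertebrate spinal cord the pathway is known for keeping a pool of progenitors while other cells become neurons.

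By role, the members were 31 windows of the ligands dlc, dll1, jag1 and jag2, 28 windows of 2 receptors, 5 of the glycosyltransferase lfng, 6 of proteases such as adam10, 10 of the ligand ubiquitin ligases mib1 and mib2, 23 of the transcription complex (rbpj, maml1 and 3 maml2- or maml3-named genes), 25 of the modulators numb, numbl and the Deltex genes, and 59 of 12 bHLH repressors. The receptor gene notch1 had 22 windows, jag2 18, hes1 11, and hes4 and hey2 10 each, while dlc, hes2, hes3.3 and hes5.1 had 1 window each. Distances are from the window's nearest edge to the transcription start site (TSS), with 0 where the window covers the TSS and a minus sign for upstream. Of the member windows 22 (11.8%) lay within 500 bp of the TSS, against 9.18% of the 117398 windows that name a gene, and these are called promoter windows here. The median distance was 22332 bp for members and 16530.5 bp for all windows with a gene, and 8 member windows lay over 100000 bp away.

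The name notch2 needs care. Of 20 neighbouring genes of the windows named notch2 on chromosome 3, 15 are neighbours of notch3 and 0 are neighbours of notch2 in the RefSeq annotation of a later assembly. By their neighbours these windows lie where RefSeq places notch3, which is also on chromosome 3. They keep the deposited name here and are called the windows named notch2. The gene named hes9.1 differs from this case. RefSeq gives it the symbol hes5.7 with hes9.1 as a synonym, and 9 of its 19 neighbours are shared.

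Accessibility at the members was of ordinary size. The median over the 27 samples was 6.22 CPM in the 22 promoter windows of members, against 5.43 CPM in all 10774 promoter windows, and 4.32 CPM in the 165 other member windows, against 4.70 CPM in all other windows that name a gene. The most accessible member was a window 81299 bp downstream of the TSS of mib1, the ligase that sends Notch ligands into endocytosis, at 37.5 CPM, which exceeded 98.0% of all windows. A pair of windows far upstream of notch1 followed, at -55881 (30.4 CPM) and -72495 (30.1 CPM). The next was a window at +1962 of the gene named notch2, at 21.5 CPM.

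The mib1 window was uneven between samples. It had 25.8, 38.4 and 71.6 CPM (lowest, median and highest) in the 13 pax6 samples, against 10.99, 34.0 and 69.2 CPM in the 14 all-tissue samples. The ranges overlapped over nearly their whole length, the coefficient of variation over all samples was 41.1%, and the tissues differed by 0.19 ± 0.24 on the log2 scale (SE, adjusted p = 0.803, edgeR). A second mib1 window at +80046 varied as much (41.6%). The window at +4817 of the maml2-like gene, a Mastermind coactivator, was the steadiest member at 9.49% variation around a mean of 13.7 CPM.

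Between the tissues, over all timepoints, 1 of 187 member windows was called, and it was lower in the pax6 samples. Of all windows 1.52% were called. It covered the TSS of maml1, the coactivator that Rbpj and the cut receptor recruit (chromosome 3, 3467383 to 3467782, genome version 9.0). The window had 3.07, 4.42 and 6.83 CPM (lowest, median and highest) in pax6 samples, against 1.72, 7.11 and 11.3 CPM in all-tissue samples. All 13 pax6 samples lay below the all-tissue median, while the lowest value of all belonged to all-tissue 0hpa replicate 1. The means were 4.95 ± 1.24 CPM in pax6 samples (SD, n = 13) and 7.37 ± 2.31 CPM in all-tissue samples (SD, n = 14). The log2 fold change was -0.60 ± 0.15 (SE, adjusted p = 0.0261, edgeR), and a two-sided permutation test of the window alone gave p = 0.0025 (0.0333 after adjustment over the 40 such tests made). Here and below, permutation tests were run only on windows and gene sums that edgeR had already called in these samples. Their p-values and this adjustment do not account for that choice among all windows, and they are not separate support. Without all-tissue 0hpa replicate 1 it was -0.67 (adjusted p = 0.000512), and 5 of 187 member windows were called. In that fit 31 of all 10774 promoter windows were called higher and 959 lower, beside 377 called in the main fit. Of the 5 called members 3 were promoter windows, and their rise in calls was shared by promoter windows as a class. The share of all windows called in that fit was not kept, so the calls away from promoters have no background. Without all-tissue 72hpa replicate 1 the call was lost at -0.54 (adjusted p = 0.0557). In uninjured tails and 0hpa together the maml1 means were closer, 5.21 CPM in pax6 and 5.90 CPM in all-tissue samples. At 72hpa they were 4.93 and 10.26 CPM. The earlier all-tissue mean includes 0hpa replicate 1, at 1.72 CPM. The change to 72hpa in pax6 minus that in all-tissue was -0.85 ± 0.34 (SE, adjusted p = 0.601, edgeR), which was not called. A difference between timepoints is therefore not shown for maml1.

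**Figure D1:**
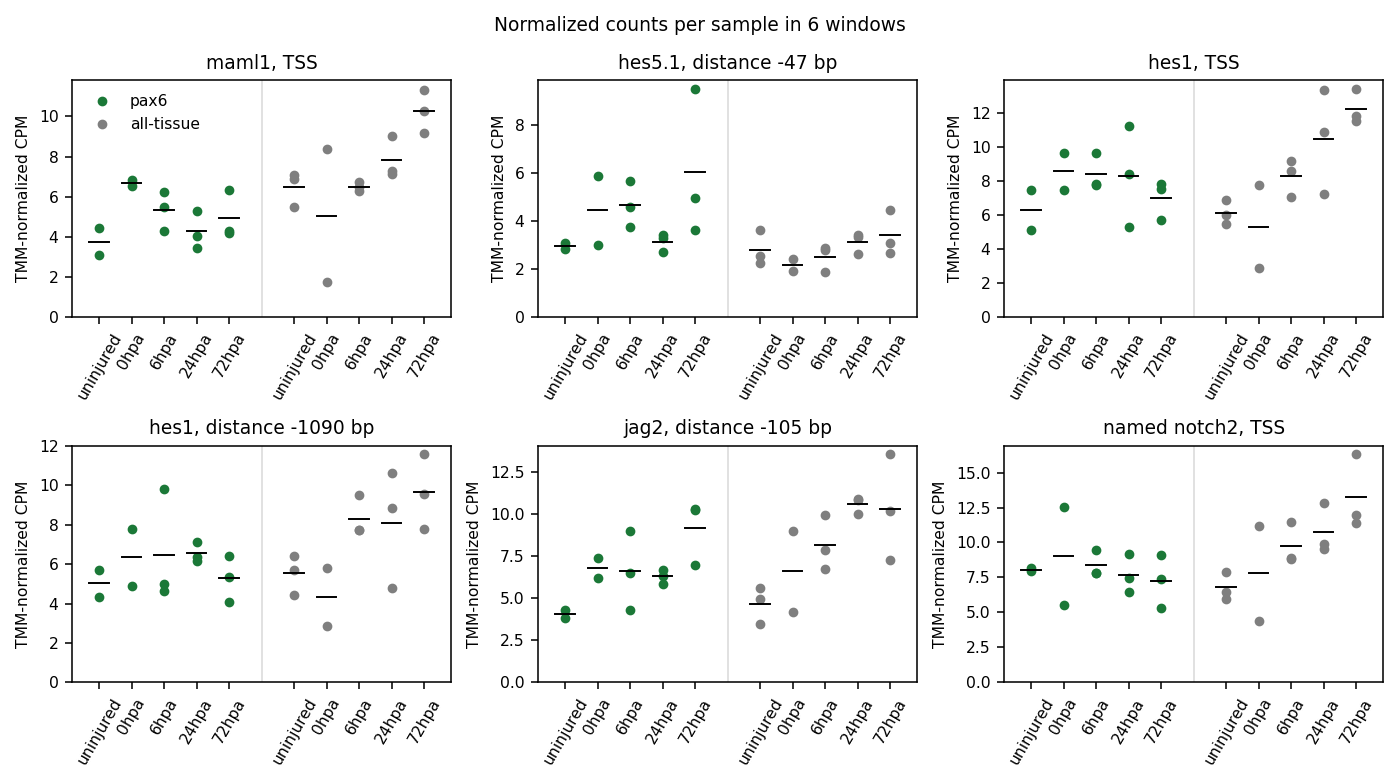
TMM-normalized CPM (y axis) in each sample (points) of 6 member windows, with pax6 samples left and all-tissue samples right in the order of timepoints on the x axis; bars are group means. The maml1 window is lower in pax6 samples, with no overlap at 72hpa, and the hes1 TSS window has 11.55 to 13.43 CPM in all-tissue samples at 72hpa, above every all-tissue baseline sample, with 1 sample at 24hpa (13.38 CPM) inside that range.

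Among promoter windows of members that were not called, the smallest p belonged to the window 47 bp upstream of hes5.1, of a gene family that in mouse neural progenitors is a classic Notch target. It had 2.70, 3.64 and 9.49 CPM in pax6 samples (lowest, median and highest), against 1.87, 2.71 and 4.48 CPM in all-tissue samples. The highest pax6 value was 72hpa replicate 3, and the ranges overlapped. The log2 fold change was 0.53 ± 0.16 (SE, adjusted p = 0.0791, edgeR), or 0.39 without that sample (adjusted p = 0.166). The next were the TSS windows of adam10, the protease that makes the first cut in the receptor (log2 fold change of -0.50, adjusted p = 0.0988), and of hey1, a bHLH repressor (-0.38, adjusted p = 0.159). The remaining promoter windows, of lfng, jag2, mib1, mib2, dtx2, numb, both receptors and the other Hes and Hey genes, had log2 fold changes of -0.44 to 0.22 and none was called.

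Of the 35 genes, 15 had no promoter window, and their nearest windows differed little between the tissues. Among the ligands, the only window of dlc, a Delta-type ligand, at -13609 had 7.99 ± 1.34 CPM in pax6 samples and 6.77 ± 1.11 CPM in all-tissue samples (SD, n = 13 and 14), with an edgeR adjusted p of 0.196 for the log2 difference of 0.25. The nearest windows of dll1 at -1024 and jag1 at -1087 had log2 fold changes of -0.07 and 0.09. For rbpj, the DNA-binding partner of the cut receptor, the window at -9945 had 5.12 ± 1.18 CPM in pax6 samples and 5.34 ± 0.94 CPM in all-tissue samples (SD, n = 13 and 14). At psenen, a subunit of the protease that frees the intracellular domain, the window at +544 had 8.47 ± 1.20 CPM in pax6 samples and 7.43 ± 1.65 CPM in all-tissue samples (SD, n = 13 and 14), with an edgeR adjusted p of 0.407 for the log2 difference of 0.18.

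The nearest windows of hes3-like, hes7.1, the maml2- and maml3-named genes, dtx1, dtx3, dtx3l-like and numbl, had log2 fold changes of -0.13 to 0.24 and none was called. By role, the median log2 fold change over all windows was 0.01 for ligands, 0.09 for receptors, 0.09 for lfng, 0.15 for ubiquitin ligases, -0.04 for the transcription complex, -0.07 for modulators and 0.00 for bHLH repressors. None of these lay far from the median of all windows. The sum over the 22 windows of notch1 was 191.9 ± 8.6 CPM in pax6 samples and 183.9 ± 8.5 CPM in all-tissue samples (SD, n = 13 and 14), with an edgeR adjusted p of 0.248 for the log2 difference of 0.06.

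Promoter windows as a class lay lower in pax6 samples, and those of the Notch and Hes/Hey genes lay with them. Of the 22 member promoter windows 4 were higher and 18 lower in pax6 samples, with a median log2 fold change of -0.16. Of all 10774 promoter windows 22.4% were higher, with a median of -0.14, and 3.50% were called (21 higher and 356 lower). The median over all 187 members was 0.01 (95 higher), and over all windows 0.00 (50.2% higher). When promoter windows were fitted alone with their own normalization factors, an alternative chosen after seeing the data, 1.39% of them were called (91 higher and 59 lower), 10 of the 22 members were higher and their median was -0.01. In that fit maml1 had a log2 fold change of -0.44 (adjusted p = 0.0569) and the hes5.1 window had 0.69 (adjusted p = 0.0182, edgeR). Of 12 alternatives other than leaving 1 sample out of the main fit, this was the only one that lost the maml1 call. Promoter windows fitted alone without all-tissue 0hpa replicate 1 kept it. The hes5.1 window was called in 3 of the 12, not all of them fits of promoter windows.

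**Figure D2:**
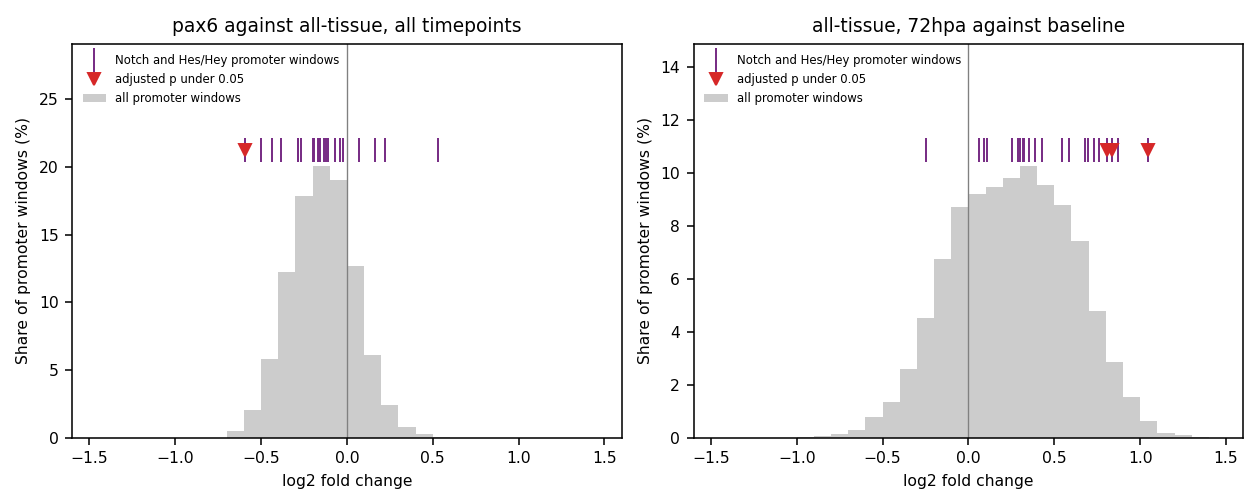
Log2 fold changes (x axis) of the 22 member promoter windows (purple lines, red triangles where the adjusted p is under 0.05) over a histogram of all 10774 promoter windows (grey, y axis in percent of promoter windows), for pax6 against all-tissue (left) and for all-tissue 72hpa against baseline (right). Most members lie near the medians of all promoter windows (-0.14 left and 0.26 right), and the called ones lie further out, maml1 at -0.60 on the left and hes1 at 1.05 on the right.

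Counts summed over all windows of a gene gave 1 value per gene, tested with the same method over 23175 genes. Of all genes 2.9% were called between the tissues, and 2 of the 35 member genes. For numb, an adaptor protein that restrains Notch in flies and mice, the sum over 6 windows was 21.2, 28.5 and 31.5 CPM in pax6 samples (lowest, median and highest), against 22.7, 34.0 and 41.7 CPM in all-tissue samples. All 13 pax6 samples were below the all-tissue median. The means were 27.5 ± 3.1 CPM in pax6 samples and 33.6 ± 5.5 CPM in all-tissue samples (SD, n = 13 and 14), with a log2 fold change of -0.27 ± 0.07 (SE, adjusted p = 0.0342, edgeR) and a permutation p of 0.00236. By timepoint the log2 fold change of numb was -0.01 in uninjured tails, 0.02 at 0hpa, -0.40 at 6hpa, -0.38 at 24hpa and -0.42 at 72hpa, and numb was called at none of them alone (smallest adjusted p = 0.0833, at 72hpa, edgeR). The tissue-by-timepoint interaction of numb was not called (adjusted p = 0.631, edgeR), so a difference between timepoints is not shown. For hey2, a bHLH repressor known as a Notch target in the mouse heart, the sum over 10 windows was 34.3, 39.2 and 45.9 CPM in pax6 samples, against 29.2, 34.3 and 41.2 CPM in all-tissue samples. No pax6 sample was below the all-tissue median and 3 lay above the all-tissue maximum.

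The hey2 means were 39.8 ± 3.5 CPM in pax6 samples and 35.0 ± 3.4 CPM in all-tissue samples (SD, n = 13 and 14), with a log2 fold change of 0.19 ± 0.05 (SE, adjusted p = 0.0383, edgeR) and a permutation p of 0.00134. The hey2 promoter window alone had a log2 fold change of -0.02, so the difference lay in the 9 windows away from the promoter. Both calls were close to the threshold. That of numb was lost without any 1 of 7 samples (replicate 3 of pax6 6hpa, replicate 1 of pax6 72hpa, replicates 2 and 3 of all-tissue 24hpa and each of the 3 replicates of all-tissue 72hpa), with an adjusted p of at most 0.0618, and with the second 72hpa library placed with replicate 2 (-0.24, adjusted p = 0.0521, with TMM factors from the gene sums). That of hey2 was lost without any 1 of 11 (in pax6, replicate 2 of uninjured and of 72hpa and replicates 2 and 3 of 6hpa; in all-tissue, replicate 3 of uninjured and of 0hpa, replicates 2 and 3 of 6hpa, replicates 1 and 3 of 24hpa and replicate 1 of 72hpa), with an adjusted p of at most 0.0710. With windows within 500 bp only, the numb call was lost as well (adjusted p = 0.0905, edgeR). The sums of hes5.1 (0.53, adjusted p = 0.0668) and maml1 (-0.20, adjusted p = 0.0806) came next and were not called.

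At single timepoints the maml1 TSS window was again the only member called, at 72hpa, where 0.369% of all windows were called. It had 4.28, 4.19 and 6.33 CPM in pax6 samples, against 10.26, 9.20 and 11.3 CPM in all-tissue samples. The 2 groups did not overlap, and the log2 fold change was -1.08 ± 0.25 (SE, adjusted p = 0.0396, edgeR). An exact permutation test gave p = 0.1, the smallest that 3 against 3 samples allow. This call was lost without any 1 of 6 samples (pax6 72hpa replicates 1 and 2, all-tissue uninjured replicates 1 and 3 and 72hpa replicates 1 and 3, adjusted p of at most 0.204) in the fit of promoter windows alone (-0.82, adjusted p = 0.0841), with DESeq2 (-1.07, adjusted p = 0.0543) and with second libraries kept as samples of their own (-1.08, adjusted p = 0.0573).

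At the other timepoints 0 of 187 members were called by the quasi-likelihood test in uninjured tails (0.0129% of all windows called, 12 members at an unadjusted p under 0.05), at 0hpa (0.00724%, 11 members), at 6hpa (0.0844%, 18 members) and at 24hpa (0.041%, 20 members). DESeq2 also called 0 at each of these timepoints, and edgeR's likelihood ratio test called 1, at 24hpa. The smallest p at 24hpa belonged to a window at +17802 of the gene named notch2 (log2 fold change of -1.15, adjusted p = 0.0749), and at 6hpa to a notch1 window at +24569 (0.79, adjusted p = 0.144). In uninjured tails it was a window at +18318 of the gene named notch2 (-0.92, adjusted p = 0.490), and at 0hpa one at -11937 of hes6.1 (0.95, adjusted p = 0.759).

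Over the course of regeneration few member windows were called, and only in comparisons that hold all-tissue samples at 72hpa. Timepoints were set against a baseline, the mean of uninjured tails and 0hpa, which all such comparisons of a tissue share. The uninjured and 0hpa samples in it differ in position along the tail. Both were taken at the stage of amputation, while later tissue came from older tadpoles. The samples hold no uninjured tails of that later age, so changes with regeneration and with age cannot be told apart. In all-tissue samples 4 of 187 member windows were called at 72hpa, all of them higher, where 0.795% of all windows were called (820 higher and 169 lower). These were 2 windows of hes1, 1 of jag2 and 1 of the gene named notch2, that is a target, a ligand and a receptor of the pathway. Without all-tissue 0hpa replicate 1, 0 members were called.

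The window over the TSS of hes1, the Xenopus hairy1 repressor (chromosome 5, 97050699 to 97051098), had 11.55, 11.84 and 13.43 CPM in all-tissue samples at 72hpa. The baseline samples had 5.50, 6.89 and 6.02 CPM (uninjured) and 2.86 and 7.80 CPM (0hpa). Every 72hpa sample was above every baseline sample. The means were 12.3 ± 1.0 CPM at 72hpa (SD, n = 3) and 5.82 ± 1.87 CPM at baseline (SD, n = 5), a 2.07-fold difference with a log2 fold change of 1.05 ± 0.20 (SE, adjusted p = 0.00722, edgeR). An exact permutation test gave p = 0.0357, the smallest that 3 against 5 samples allow. At 6hpa the window had 7.09 to 9.21 CPM and at 24hpa 7.23 to 13.4 CPM in all-tissue samples. The call was lost without all-tissue 0hpa replicate 1 (0.83, adjusted p = 0.0720), without all-tissue 72hpa replicate 3 (0.98, adjusted p = 0.101) and against uninjured tails alone (1.01, adjusted p = 0.0632). In the fit of promoter windows alone it held (0.80, adjusted p = 0.0162), but not when that fit also left out all-tissue 0hpa replicate 1 (0.65, adjusted p = 0.131).

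A hes1 window further upstream (97049424 to 97049823) was also called. It had 9.58, 7.80 and 11.6 CPM at 72hpa, against 5.73, 4.46, 6.43, 2.86 and 5.82 CPM in the baseline samples, again with no overlap. The log2 fold change was 0.92 ± 0.22 (SE, adjusted p = 0.0277, edgeR). Another hes1 window between them, 262 bp upstream, had a log2 fold change of 0.25 (adjusted p = 0.772) and was not called.

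The promoter window of jag2, which encodes a Jagged ligand (chromosome 8, 80053305 to 80053704), had 10.19, 7.24 and 13.56 CPM at 72hpa. The baseline samples had 4.93, 3.45, 5.62, 4.20 and 9.01 CPM. Here the groups overlapped, since 0hpa replicate 3 was above 1 of the 72hpa samples. The log2 fold change was 0.84 ± 0.20 (SE, adjusted p = 0.0322, edgeR). At 24hpa the 3 all-tissue samples had 9.99, 10.85 and 10.91 CPM, all above the baseline, and the log2 fold change of 0.88 ± 0.22 was not called (SE, adjusted p = 0.0638, edgeR). The other 17 windows of jag2, as far as -246510 bp, were not called in any comparison, and the sum over its windows was level at 87.0 ± 3.4 CPM in pax6 samples and 87.1 ± 5.5 CPM in all-tissue samples (SD, n = 13 and 14).

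The TSS window of the gene named notch2 (chromosome 3, 122365671 to 122366070) had 11.999, 11.42 and 16.33 CPM at 72hpa. The baseline samples had 5.96, 6.49, 7.90, 4.39 and 11.21 CPM. The groups were separated by a small gap, between 11.21 and 11.42 CPM. The log2 fold change was 0.81 ± 0.20 (SE, adjusted p = 0.0349, edgeR).

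The calls of the upstream hes1 window, of jag2 and of the gene named notch2 each rested on the same 5 all-tissue samples (uninjured replicates 1 and 2, 0hpa replicate 1 and 72hpa replicates 1 and 3), and leaving out any 1 of them ended each call. Without 0hpa replicate 1 the log2 fold changes were 0.75 (adjusted p = 0.209) for the hes1 window, 0.65 (adjusted p = 0.239) for jag2 and 0.59 (adjusted p = 0.243) for the gene named notch2. Over those 5 samples the adjusted p reached 0.289, 0.402 and 0.357 for the 3 windows in that order. In the fit of promoter windows alone jag2 (0.58, adjusted p = 0.0795) and the gene named notch2 (0.56, adjusted p = 0.0732) were not called. All 3 calls were also lost with a set of 23 libraries, which leaves out all-tissue 0hpa replicate 1 and others. Those of the upstream hes1 window and of the gene named notch2 were lost against uninjured tails alone as well.

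Among all-tissue windows that were not called at 72hpa, the TSS windows of hes4, the Xenopus hairy2 repressor (0.70, adjusted p = 0.0577), maml1 (0.76, adjusted p = 0.0685) and notch1 (0.73, adjusted p = 0.0734) and the window at mib2, a ligand ubiquitin ligase (0.68, adjusted p = 0.0913), had the next smallest p among promoter windows. At notch1 the TSS window had 8.91, 6.55 and 10.27 CPM at 72hpa, against 4.20 to 6.04 CPM at baseline, without overlap. Its far upstream windows at -55881 and -72495, the most accessible of the gene, had log2 fold changes of -0.27 and -0.31 and were not called.

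**Figure D3:**
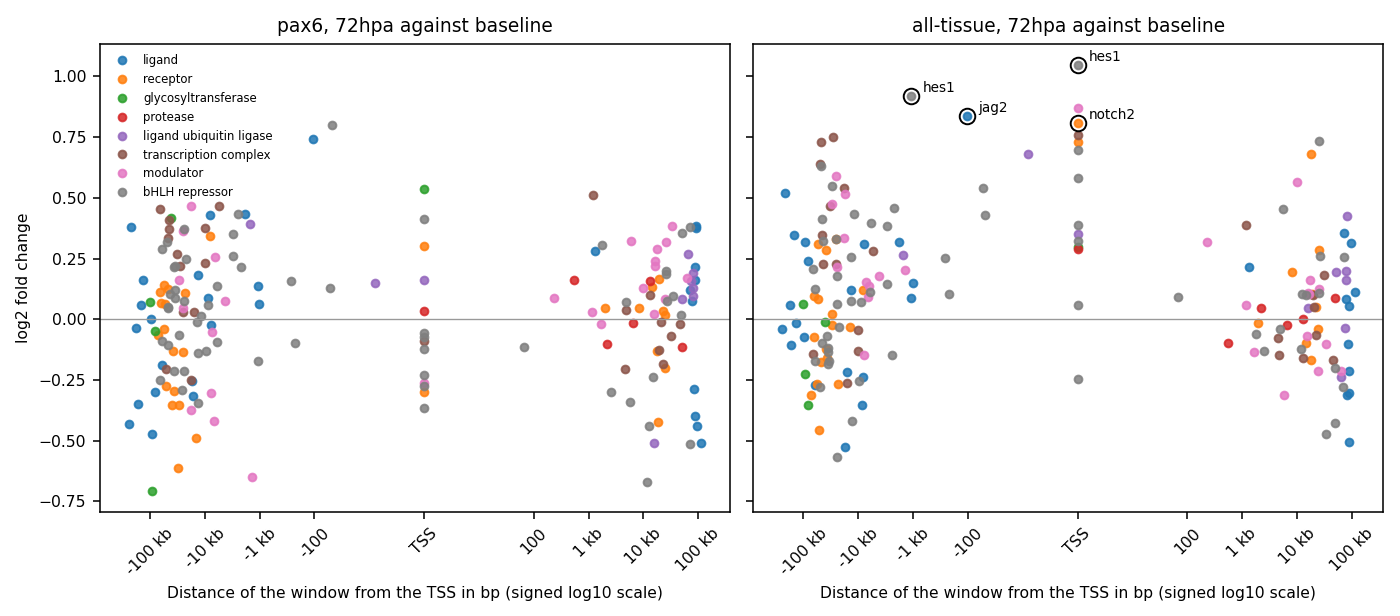
Log2 fold change at 72hpa against baseline (y axis) of all 187 member windows by distance from the TSS (x axis, signed log10 scale in bp), coloured by role, in pax6 samples (left) and all-tissue samples (right). Circles mark the 4 called windows, all in all-tissue samples and close to a TSS, and the windows over a TSS reach 1.05 in all-tissue samples.

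Promoter windows as a class were higher in all-tissue samples at 24hpa and 72hpa, and most of the member changes lay in that class. At 72hpa 21 of the 22 member promoter windows were higher than at baseline, with a median log2 fold change of 0.41. Of all promoter windows 74.7% were higher, with a median of 0.26, and 4.68% were called (490 higher and 14 lower). At 24hpa all 22 were higher (median 0.44), beside 76.0% of all promoter windows (median 0.28). Without all-tissue 0hpa replicate 1, 19 of the 22 were higher at 72hpa (median 0.29), beside 70.9% of all promoter windows (median 0.18, with 28 called higher and 1 lower), and at 24hpa 22 were higher (median 0.29), beside 72.5% of all promoter windows (median 0.20). Promoter windows took 9.00 to 9.81% of the counts in all-tissue samples at 72hpa, against 7.05 to 8.95% at baseline, and 8.12 to 8.39% in pax6 samples at 72hpa, against 6.91 to 8.75% at baseline. The summed promoter windows of the epidermis markers ranged from 28.8 to 43.3 CPM in all-tissue samples at 72hpa, against 18.9 to 36.0 CPM at baseline, and those of neural progenitor markers from 26.6 to 36.9 CPM, against 22.5 to 30.2 CPM. The part of this share in the member results was not tested. Promoter windows were also fitted alone with their own normalization factors, which centres their changes by construction (median log2 fold change of -3e-04). There 3.96% of promoter windows were called (187 higher and 240 lower), 17 of the 22 members were higher at 72hpa with a median of 0.15, and hes1 was the 1 member called.

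In gene sums, numb was called in all-tissue samples at 24hpa, where 0.69% of all genes were called, and numb and hes1 at 72hpa, where 2.05% were called. The sum for numb was 33.2, 39.1 and 41.7 CPM at 24hpa and 36.4, 38.6 and 38.7 CPM at 72hpa. The baseline samples had 24.9, 31.0, 28.4, 22.7 and 31.5 CPM. Neither timepoint overlapped with the baseline. The log2 fold changes were 0.46 ± 0.11 at 24hpa (SE, adjusted p = 0.0394, edgeR) and 0.44 ± 0.11 at 72hpa (SE, adjusted p = 0.0212, edgeR). For hes1 the sum was 58.3, 60.6 and 64.1 CPM at 72hpa, against 45.02, 44.8, 50.1, 41.2 and 51.4 CPM at baseline, without overlap (0.38 ± 0.09, SE, adjusted p = 0.0252, edgeR).

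Without all-tissue 0hpa replicate 1 these 3 values were 0.37 (adjusted p = 0.219) for numb at 24hpa, 0.35 (adjusted p = 0.166) for numb at 72hpa and 0.31 (adjusted p = 0.175) for hes1. The calls of numb and hes1 at 72hpa were also lost without uninjured replicate 1 or any 1 of the 3 all-tissue samples at 72hpa, with an adjusted p of at most 0.200. That of numb at 24hpa was also lost without uninjured replicate 1 or 3 or 24hpa replicate 2 or 3, with an adjusted p of at most 0.267. The comparisons of numb between the tissues and over time share the all-tissue samples. The change of numb to 72hpa in pax6 minus that in all-tissue was -0.42 ± 0.16 (SE, adjusted p = 0.418, edgeR), which was not called.

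**Figure D4:**
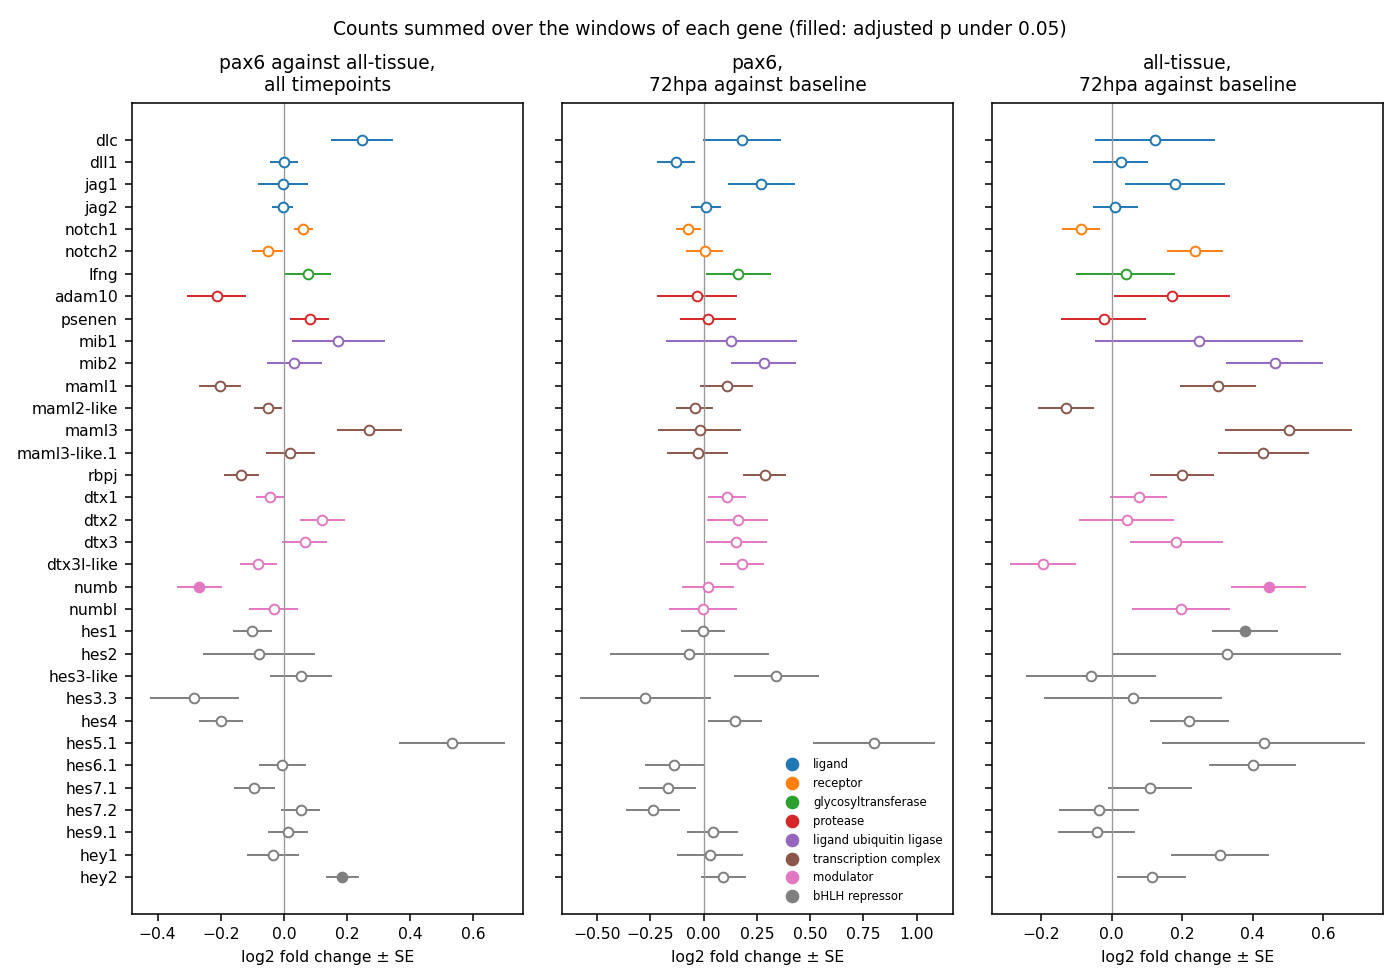
Log2 fold change ± SE (x axis) of the counts summed over the windows of 34 of the 35 genes (rows, coloured by role), for pax6 against all-tissue, pax6 72hpa against baseline and all-tissue 72hpa against baseline. Filled points passed an adjusted p under 0.05: numb (-0.27) and hey2 (0.19) in the left panel, none in the middle, numb (0.44) and hes1 (0.38) in the right panel.

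In pax6 samples no window of any gene was called against the baseline at 6hpa, 24hpa or 72hpa (0% of all windows in each by the quasi-likelihood test), and so 0 of 187 members. At an unadjusted p under 0.05, for which the share of all windows was not counted, there were 8, 8 and 11 members at 6hpa, 24hpa and 72hpa. At 72hpa DESeq2 and the likelihood ratio test also called 0. The smallest p at 72hpa was that of the jag2 window, with 10.27, 6.99 and 10.28 CPM, against 4.32, 3.84, 6.20 and 7.40 CPM at baseline. These groups overlapped by 1 sample, and the log2 fold change was 0.74 ± 0.24 (SE, adjusted p = 0.471, edgeR). The hes1 TSS window had 7.53, 7.83 and 5.73 CPM at 72hpa, against 7.46, 5.12, 7.50 and 9.68 CPM at baseline, with a log2 fold change of -0.12 (95% interval -0.59 to 0.35).

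The TSS window of the gene named notch2 had 7.36, 9.09 and 5.34 CPM in pax6 samples at 72hpa, against 8.15, 7.93, 5.54 and 12.5 CPM at baseline, with a log2 fold change of -0.30 (95% interval -0.76 to 0.16). For both windows the values at 72hpa lay within the baseline range or just below it. In gene sums 0 of 35 member genes were called in pax6 samples at 72hpa (0.00431% of all genes, 2 members at an unadjusted p under 0.05). The windows at 6hpa and 24hpa with the smallest p were a hes9.1 window at -3043 (0.52, adjusted p = 0.761) and one of the gene named notch2 at +17802 (-0.67, adjusted p = 0.900).

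Averaged over both tissues, 1 member was called at 72hpa, the jag2 promoter window, where 0.153% of all windows were called. Its log2 fold change was 0.79 ± 0.16 (SE, adjusted p = 0.0180, edgeR). In the tissues taken singly it was 0.74 in pax6 and 0.84 in all-tissue samples, and the window was also called among promoter windows fitted alone (0.65, adjusted p = 0.0217), though not when all-tissue 0hpa replicate 1 was left out there (0.59, adjusted p = 0.0572). The call was lost without all-tissue 0hpa replicate 1 (0.70, adjusted p = 0.0555), without all-tissue 72hpa replicate 3 (0.68, adjusted p = 0.108) and without pax6 72hpa replicate 3 (0.75, adjusted p = 0.0525). The jag2 call was also lost with the set of 23 libraries. At 6hpa (0% of all windows) and 24hpa (0.0201%) 0 members were called over both tissues, with 15 and 18 members at an unadjusted p under 0.05.

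Whether the change to 72hpa differed between the tissues was tested directly, a test added after seeing the data. It called 0.000804% of all windows and 0 of 187 members. At an unadjusted p under 0.05 there were 8650 of the 124342 windows tested and 16 of the 187 members. The smallest p among members was that of hes1 at the TSS, with a change in pax6 minus that in all-tissue of -1.17 ± 0.31 on the log2 scale (SE, adjusted p = 0.269, edgeR). Next came the gene named notch2 at the TSS, with -1.11 ± 0.31 (SE, adjusted p = 0.287, edgeR). The TSS window of numb had a difference of similar size, -1.13 ± 0.41 (SE, adjusted p = 0.538, edgeR). A call in all-tissue samples and none in pax6 samples is therefore not shown to be a difference between them.

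The remaining time comparisons called 0 members by the quasi-likelihood test. In all-tissue samples at 6hpa 0.00161% of all windows were called at an adjusted p under 0.05. At an unadjusted p under 0.05, for which the share of all windows was not counted, there were 22 members. They were led by the upstream hes1 window (0.70, adjusted p = 0.702). At 24hpa (0.151%) there were 23, led by the jag2 window, where DESeq2 called 0 and the likelihood ratio test 3. For 24hpa against 6hpa and 72hpa against 24hpa the shares of all windows called were 0% and 0% in pax6 samples (11 and 9 members at an unadjusted p under 0.05) and 0% and 0.000804% in all-tissue samples (10 and 4 members). For 0hpa against uninjured tails over both tissues it was 0%, with 8 members at an unadjusted p under 0.05, led by the hes4 TSS window (0.64, adjusted p = 1.0).

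Any difference among the 5 timepoints was tested in the same model. In pax6 samples 0.000804% of all windows and 0 members were called, with the smallest p at the hes4 TSS window (adjusted p = 0.459). In all-tissue samples 0.105% of all windows and 0 members were called, with the smallest p at the hes1 TSS window (adjusted p = 0.0704, edgeR). For the tissue-by-timepoint interaction 0.00402% of all windows and 0 members were called. At an unadjusted p under 0.05 these tests held 7, 22 and 14 members, and the likelihood ratio test called 0, 2 and 0.

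Genes of the pathway outside the name rule were examined in the same way. A list of 40 such genes, with further proteases, ligand and receptor enzymes, corepressors, coactivators and proneural and Id genes, had windows for 28 genes, 209 windows in all. Between the tissues, where 1.52% of all windows were called, 0 were higher and 2 lower in pax6 samples, both of id2, an inhibitor of bHLH factors (-0.60 at its TSS, adjusted p = 0.0135, edgeR). The call at the id2 TSS was kept in each of the 27 fits that leave out 1 sample, and that of the distal window in 12 of them. In all-tissue samples, where 0.795% of all windows were called at 72hpa, 4 were higher at 72hpa and 0 lower: the TSS windows of hdac2, a histone deacetylase (0.86), and tle4, a Groucho corepressor that Hes proteins recruit (0.76), and distal windows of ctbp1, a corepressor (0.88), and id3 (0.87). At 24hpa, where 0.151% of all windows were called, the tle4 window was the 1 called (0.78, adjusted p = 0.0493, edgeR). Without all-tissue 0hpa replicate 1 none of these was called: the log2 fold changes were 0.65 for hdac2 (adjusted p = 0.282), 0.59 for tle4 at 72hpa (adjusted p = 0.178), 0.62 for tle4 at 24hpa (adjusted p = 0.272), 0.91 for ctbp1 (adjusted p = 0.119) and 0.73 for id3 (adjusted p = 0.276). Over the 27 fits that leave out 1 sample the 4 calls at 72hpa were kept in 20, 23, 20 and 12 of them for hdac2, tle4, ctbp1 and id3 in that order. The call of tle4 at 24hpa was kept in 10 of the 27 fits and in 6 of 12 other settings. In pax6 samples 0 of the 209 were called at 72hpa. No window of the marker lists for neural progenitors, neurons, muscle, epidermis, notochord, or blood and vessel was called at 72hpa against the baseline in either tissue.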

How the data were processed

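ATAC-Seq was measured in 31 libraries. After adapter trimming (Trim Galore), the authors mapped the reads to the Xenopus tropicalis genome, version 9.0, using Bowtie2, removed duplicates, called peaks with MACS2 on the merged alignments (shifting and extending reads around the cut site) and used featureCounts to count fragments no longer than 2000 bp. Fragments carry no molecular identifiers. The deposited values are raw counts per window, and the deposited summit scores are −log10 q-values of the merged peaks. The authors' table of the tissue comparison also holds their fold changes and p-values. Its gene names, positions and distances were used, those values were not.

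Libraries with 11 and 143 counts were left out (pax6 0hpa replicate 1 and pax6 uninjured replicate 3), and 2 second libraries were summed with the replicate that their title names. For the all-tissue 72hpa one (replicate 1 by its title) the study's figure gives replicate 2 instead, so all-tissue 72hpa replicates 1 and 2 are uncertain to that extent. The other placement was an alternative. Windows that reached 1 CPM in 2 or more samples (124342 of 124349) entered the tests, made with edgeR 4.0.16 in R 4.3.3 (TMM, robust quasi-likelihood F test), with 2 groups for the tissues over all timepoints and 10 groups for timepoints. SE is the log2 fold change over the root of F. For single values, exact permutation tests (scipy 1.17.1, Python 3.11.15) were used, or 100000 resamples where both groups had 10 or more samples. These were run only on windows and gene sums that edgeR had called in a comparison of the same samples. The alternatives were DESeq2 1.42.0, the likelihood ratio test of edgeR, leaving out each sample, and other baselines, filters, normalizations and sets of libraries. The procedure was tested on simulated data.

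Named windows are, per gene, the one nearest the TSS, each called window and, in comparisons with none, the one with the smallest p. The members and lists were chosen with earlier results of these data known. No sequence was used, so promoter motifs and proteins are not shown. Gene neighbours were compared with RefSeq's UCB_Xtro_10.0 annotation, and no coordinates of it are given. Of the member genes 1 is counted but not reported singly here.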

Additional observations from a re-analysis of the deposited data

Results flagged for a closer look

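The window 47 bp upstream of hes5.1 had 5.87 CPM in pax6 0hpa replicate 2, while the other 3 pax6 samples of uninjured tails and 0hpa had 2.85, 3.07 and 3.008 CPM. The sample lay apart from the others by Dixon's criterion at the 95% level. It was the 1 such case in 18 groups of baseline samples examined, and chance alone gives about 1 in 20.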

How the results depend on the processing

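Between the tissues over all timepoints 1 member window was called. An unadjusted p under 0.01 gave 11, the likelihood ratio test 2 and a set of 23 libraries, which leaves out 6 more and all-tissue 0hpa replicate 1 among them, 5, and leaving out 1 sample gave 0 to 5. At single timepoints 1 was called, against 25, 4 and 3 under the same settings, 0 with second libraries as samples of their own, 0 with DESeq2 and 0 to 5 when leaving out 1 sample. Over time 4 were called, against 23 at an unadjusted p under 0.01, 10 by the likelihood ratio test, 7 with second libraries as samples of their own, 7 when each tissue was fitted alone, 2 against uninjured tails alone, 1 with 23 libraries and 0 to 14 when leaving out 1 sample. For any difference over time 0 were called, against 11 at an unadjusted p under 0.01, 2 by the likelihood ratio test and 0 to 8 when leaving out 1 sample. In gene sums 3 genes were called, against 9 with windows within 500 bp only and 1 to 8 when leaving out 1 sample. With windows within 500 bp only, hey2 between the tissues turned to -0.034 (adjusted p = 0.907). The causes were not tested, except that fewer samples or windows enter some settings by construction. Counts in this section are of members alone. The shares of all windows or genes called under these settings were not kept. Whether member counts moved more than those of other windows or genes is therefore not shown.

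Same-numbered pax6 and all-tissue samples did not deviate together (12 pairs, median correlation 0.02), and the main fits did not pair them. The labels name no clutch or day of preparation, so a shared origin of same-numbered samples is not excluded. With the number as a replicate block 7 windows were called over time and 2 for any difference over time, and other counts stayed within 1.5 times. Settings for single timepoints and for any difference, the 23 libraries and filter over time, the second 72hpa library in gene sums, promoter windows alone (also without all-tissue 0hpa replicate 1), all settings for the other pathway genes and the direct test of 72hpa were chosen after seeing the data. Direction was followed over the alternatives only for the called member windows and gene sums and for the hes5.1 window. Among these it was the same in every alternative except for the hey2 gene sum. Other member promoter windows did change direction when promoter windows were fitted alone, as their counts above show. With a median of 15 to 62 counts per member window, depth limits what single windows can show.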
